A study of Vitis vinifera with 2 samples.

Results

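Novel_mir_154 and novel_mir_166 are predicted miRNAs of grapevine (Vitis vinifera), each read from a hairpin between genes. They were chosen by name from a table of 299 predicted miRNAs, because both had over 10000 reads in the cold-treated and in the non-cold-treated library and because their levels moved in opposite directions. These 2 of 299 entries were therefore selected on the read counts themselves, so the counts are described here without a test. The article on these data calls them novel_mir_20 and novel_mir_25, names that belong to other, low-count entries in the deposited table, and the table's names are used throughout.

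The cold-treated (CT) library was made from 'Muscat Hamburg' plantlets, micropropagated and 6 weeks old, that were held at 4°C for 4 h. The non-cold-treated (NCT) library was made from plantlets of the same cultivar and age kept at 26°C and taken at 0 h. The tissue is labelled as leaf, and the methods describe it as the shoot apex with 1 developed leaf, pooled from 3 plantlets per library. There is 1 library per condition, so no difference between CT and NCT has a replicate check, and temperature cannot be told apart from any other difference between the libraries.

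Plant miRNAs are cut by a Dicer-like enzyme from a transcript that folds back on itself. The enzyme releases a short duplex of the mature strand and its partner from the other arm of the hairpin, and each strand of the duplex projects at its 3′ end. The mature strand is then loaded into an Argonaute protein and guides it to messenger RNAs by base pairing, which in plants commonly leads to cleavage of the target. Small RNA sequencing counts such mature strands as reads of a fixed sequence, after adapter ligation, reverse transcription and PCR. Numbers of molecules were not measured.

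The mature sequences are shown first, as DNA letters of the deposited table, with bases 2 to 8 (the seed, a conventional region for comparing miRNAs) in capitals.
novel_mir_154: aGAAGAGAgagagtacagcta
novel_mir_166: tCGCAGGAgagatgacgccgt

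Both are 21 nt long, as are 221 of the 299 entries (73.9%). Novel_mir_154 begins with A, which 53 entries do (17.7%), and novel_mir_166 with T (U in the RNA), which 183 entries do (61.2%). Novel_mir_154 is rich in purines, at 17 of its 21 bases, and only 17 of the 299 entries had a higher purine share. Novel_mir_166 has 13 G or C bases (61.9%), and 13 of the 299 entries had a higher share of G and C. The seed of novel_mir_166 was found in no other entry, at any position. The seed of novel_mir_154 stood at the same positions in 2 others, novel_mir_13, with 31 reads in NCT only, and novel_mir_285, with 11 reads in CT only. Neither seed occurred at these positions in the 101 different sequences of the known grapevine miRNAs searched.

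The precursors were taken from the study's list of predicted miRNAs and lie on the minus strand of the PN40024 12X genome. That of novel_mir_154 is printed, with the mature strand in capitals, because its length and shape set it apart. Novel_mir_154 has its precursor on chromosome 5, at chr5:19124470-19124728, with the mature strand at 19124480 to 19124500. Novel_mir_166 has its precursor on chromosome 6, at chr6:3976407-3976496, with the mature strand at 3976466 to 3976486. Both are annotated as intergenic there.
novel_mir_154: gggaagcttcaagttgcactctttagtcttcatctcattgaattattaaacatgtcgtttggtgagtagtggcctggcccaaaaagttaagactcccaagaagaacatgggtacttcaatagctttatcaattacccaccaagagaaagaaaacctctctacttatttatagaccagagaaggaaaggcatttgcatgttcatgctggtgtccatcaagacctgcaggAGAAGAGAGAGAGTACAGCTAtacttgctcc

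The deposited table gives the arm of the hairpin from which each entry was read. Novel_mir_154 was read from the 3p arm and novel_mir_166 from the 5p arm, in both CT and NCT. Each had 1 precursor in either library. Of the 103 entries listed in both libraries, 80 had 1 precursor in each, and these lay on the 5p arm in 45 cases and on the 3p arm in 35. No such entry changed its arm between the libraries, but the same sequence at a single hairpin keeps its arm, so arm use was not compared. The count of each member was thus listed with a single predicted hairpin. Novel_mir_178, the next entry under 10000 reads, was listed with 8 precursors in CT and 8 in NCT. Whether the sequences of the members occur elsewhere in the genome was not checked.

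The hairpins of the pair were very different when folded with RNAfold at 37°C. That of novel_mir_154 was long and branched. It measured 259 nt, 7 of the 65 precursors compared being longer, and its predicted structure held 4 hairpin loops, against a median of 2 over the 65. Between its mature strand and the stretch of the 5p arm paired with it lay 197 bases, and only 6 precursors had more. The minimum free energy was -62.8 kcal/mol, or -0.242 kcal/mol per base, and 50 of the 65 precursors had a lower energy per base.

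Novel_mir_166 came from a short, simple hairpin of 90 nt with 1 loop. Its minimum free energy was -45.9 kcal/mol, or -0.51 kcal/mol per base, and 8 of the 65 precursors had a lower value per base. Only 28 bases separated its mature strand from the stretch paired with it. The median over the 65 precursors was 59 bases for this distance. The prediction criteria in the methods set a limit on this space that is exceeded, as refolded here, by novel_mir_154 and by that median. The median was -0.315 kcal/mol per base for the energy.

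Pairing of the mature strand itself differed less. In novel_mir_154, 17 of 21 bases were paired, 2 of them as G:U, and the longest unbroken helix had 7 pairs. In novel_mir_166, 16 of 21 bases were paired, 1 of them as G:U, and the longest unbroken helix had 13 pairs. The median over the 65 precursors was 18 paired bases and a helix of 9 pairs. Of the 65 precursors, 10 had fewer paired bases than novel_mir_154 and only 3 had fewer than novel_mir_166, while 50 had a shorter helix than novel_mir_166.

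**Figure D1:**
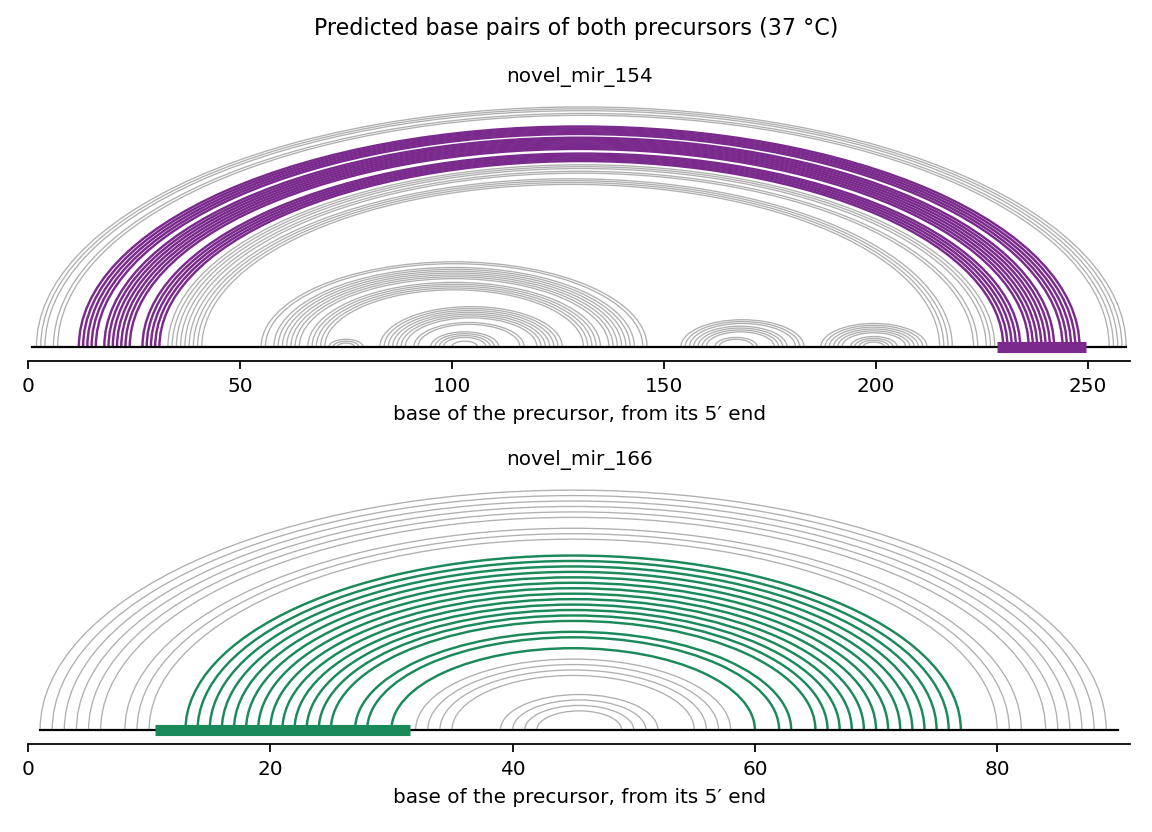
Predicted base pairs of the precursors of novel_mir_154 (top, 259 nt) and novel_mir_166 (bottom, 90 nt). The x axis is the base of the precursor counted from its 5′ end, each arc joins 2 paired bases, the thick bar marks the mature strand and coloured arcs are the pairs it takes part in. The mature strand of novel_mir_154 lies near the 3′ end, 197 bases from its partner stretch and outside a branched loop, and that of novel_mir_166 lies near the 5′ end of an unbranched hairpin.

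The study's list of predicted miRNAs gives a partner strand from the other arm for novel_mir_166, at bases 61 to 81 of the precursor. No read count of this strand was used here. In the predicted structure, 15 pairs joined it with the mature strand. As refolded here, this is below the minimum of pairs that the prediction criteria in the methods set. Each strand projected by 2 nt at its 3′ end, the spacing that Dicer-like enzymes leave. That list gives no 5p strand for novel_mir_154. The bases of its 5p arm that face the mature strand, 12 to 31 of the precursor, are agttgcactctttagtcttc.

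The levels followed opposite directions. Novel_mir_154 had 11480 reads in CT, against 14210 reads in NCT. Scaled to the clean reads of each library (25915815 in CT and 21355400 in NCT), this was 443 reads per 1000000 clean reads (RPM, 95% Wilson interval 435 to 451) in CT, against 665 (655 to 676) in NCT. The log2(CT/NCT) was -0.59, or 0.666-fold.

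Novel_mir_166 had 20765 reads in CT, against 10867 reads in NCT. This was 801 RPM (790 to 812) in CT, against 509 (499 to 519) in NCT. The log2(CT/NCT) was 0.65, or 1.57-fold. The standard error from counting alone was 0.018 on the log2 scale for novel_mir_154 and 0.017 for novel_mir_166. The intervals cover counting error only, as PCR copies are not independent molecules, and the spread between libraries of a condition is unknown.

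As the members sit in the same libraries, their ratio does not depend on any scaling. There were 1.81 reads of novel_mir_166 for each read of novel_mir_154 in CT (exact 95% interval 1.77 to 1.85), against 0.765 in NCT (0.746 to 0.784). The ratio was 2.37 times as high in CT, a direction that was fixed by the choice of the members. Their order in reads was exchanged, novel_mir_166 having more reads in CT and novel_mir_154 in NCT.

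**Figure D2:**
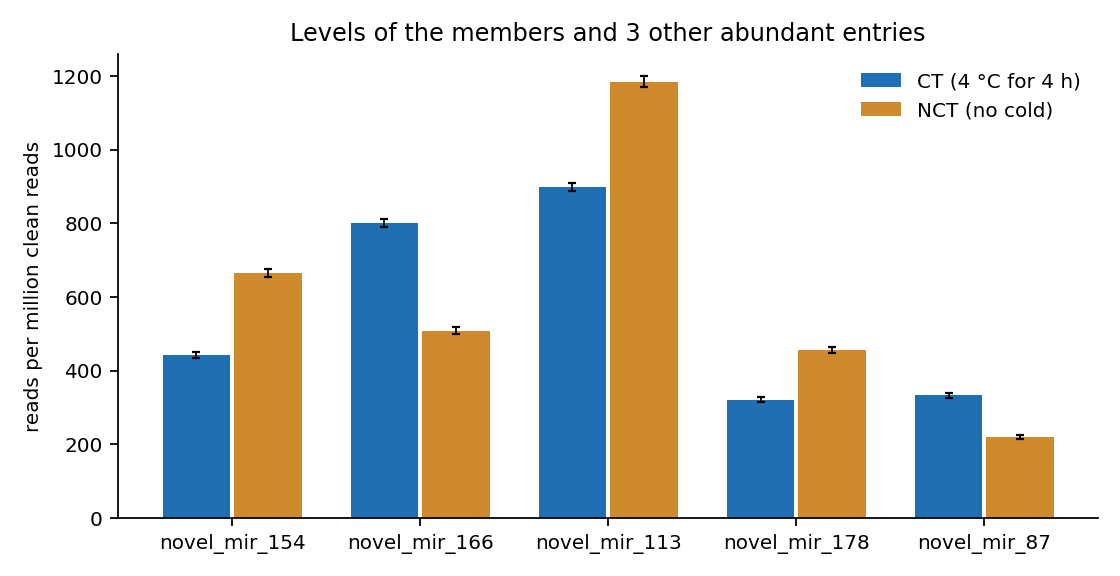
Level in RPM, reads per 1000000 clean reads (y axis), of both members and of the 3 other entries with the most reads in the table, in the CT library (left bars) and the NCT library (right bars), with 95% Wilson intervals for counting error. Novel_mir_154 stood at 443 in CT against 665 in NCT and novel_mir_166 at 801 against 509, and novel_mir_87 was the only other entry of the plot with a higher bar in CT.

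The members held a large part of all listed reads. Novel_mir_154 took 11.8% of the reads in the table in CT, against 15.3% in NCT. Novel_mir_166 took 21.3% in CT, against 11.7% in NCT. Together they held 32245 of 97572 listed reads in CT, or 33.0% (95% Wilson interval 32.8 to 33.3), against 25077 of 92912 in NCT, or 27.0% (26.7 to 27.3). Their summed level was 1244 RPM in CT, against 1174 in NCT, a log2(CT/NCT) of 0.08. All other entries together made up 65327 reads in CT, against 67835 in NCT, or 0.252% of the clean reads in CT against 0.318% in NCT.

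In the order of levels, novel_mir_113, an entry from chromosome 1, was first in each library, with 23311 reads in CT and 25311 in NCT. Novel_mir_166 followed in CT and novel_mir_154 in NCT. The fourth place was taken in CT by novel_mir_87, with 8651 reads, and in NCT by novel_mir_178, with 9743 reads. No member overlapped a neighbour in this order within the counting intervals. The nearest pair was novel_mir_166 and novel_mir_178 in NCT, at 499 to 519 against 447 to 465 RPM.

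The limit of 10000 reads separated close values. Just inside it stood novel_mir_166, whose smaller count was 10867 reads, in NCT. Just outside stood novel_mir_178, with 8339 reads in CT and 9743 in NCT.

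Over the 103 entries listed in both libraries, the median log2(CT/NCT) was -0.41, with quartiles of -0.75 and -0.05. On this scale, 24 entries (23.3%) were higher in CT, as was 1 of the 2 members, and 79 (76.7%) were lower. Since the direction was part of the choice, nothing is read from this count. Relative to the median, novel_mir_154 was at -0.18 and novel_mir_166 at 1.07 on the log2 scale. For novel_mir_154, 38 of the other entries had a lower ratio and 64 a higher one. Novel_mir_166 had a higher ratio than 94 of the other 102 entries, and 8 were above it. Neither passed a log2 ratio of 1 in size with the clean reads, which 4 entries (3.88%) exceeded upward and 18 (17.5%) downward. In raw reads, without any scaling, 42 entries (40.8%) had more reads in CT and 59 (57.3%) had fewer.

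**Figure D3:**
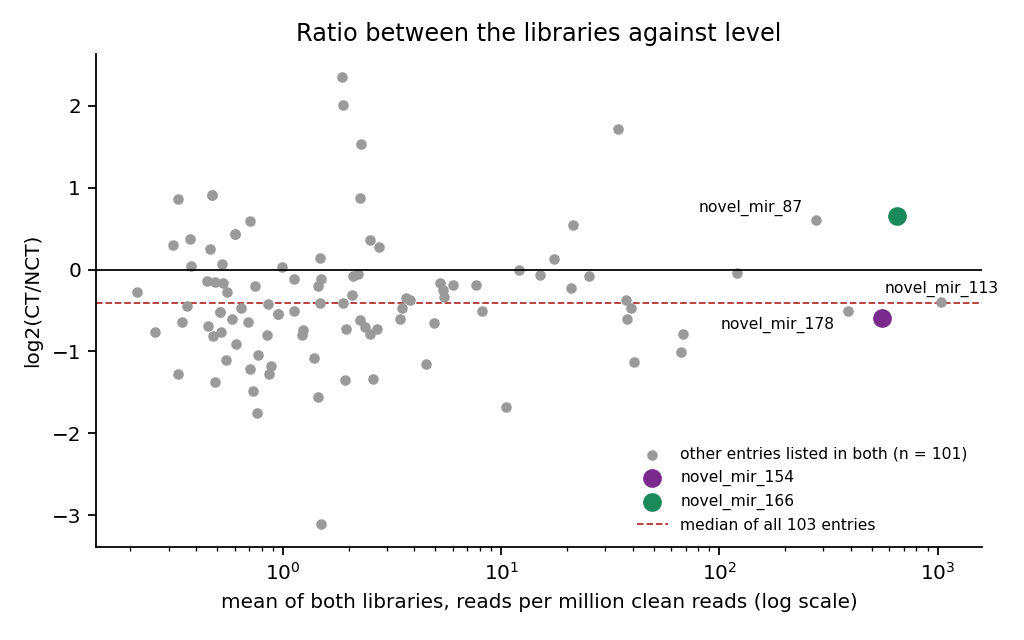
The log2(CT/NCT) (y axis) against the mean level in RPM (x axis, log scale) for the 103 entries listed in both libraries. Each point is an entry, the dashed line is their median of -0.41, and the members lie at the far right, novel_mir_166 at 0.65 with few entries above it and novel_mir_154 at -0.59 among the bulk of the entries.

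The size of both ratios moved with the library total. The directions did not, but the members were chosen for them, so this is no independent check. When scaled by the median of ratios, which brings the 103 entries to a median of 0, novel_mir_154 was at -0.18 and novel_mir_166 at 1.07. With edgeR's TMM factors the values were -0.17 and 1.07. The log2 ratio of novel_mir_166 therefore passed 1 with these scalings and not with the clean reads.

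**Figure D4:**
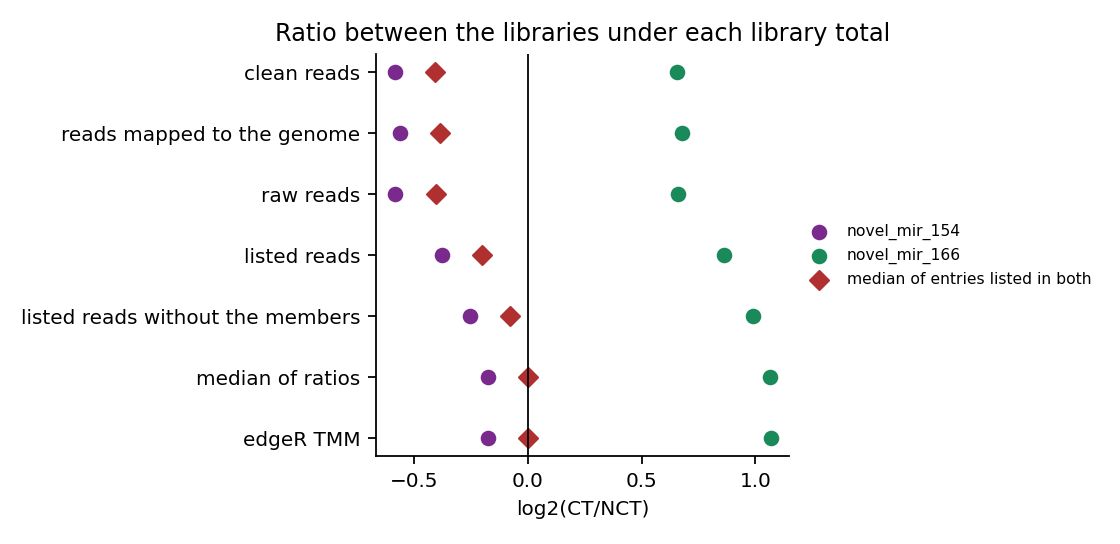
The log2(CT/NCT) (x axis) of novel_mir_154, novel_mir_166 and of the median over the 103 shared entries (diamonds) under 7 library totals (rows). All 3 move together, novel_mir_154 between -0.59 and -0.17 and novel_mir_166 between 0.65 and 1.07, each on its own side of 0.

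Entries with a similar ratio were sought among the 8 that had 1000 or more reads in CT and in NCT. Nearest to novel_mir_154 was novel_mir_178, with a log2(CT/NCT) of -0.50, followed by novel_mir_113 at -0.40 and novel_mir_57, with 1294 reads in CT and 1844 in NCT, at -0.79. Nearest to novel_mir_166 was novel_mir_87, at 0.60 and a distance of 0.05. The following ones were remote, novel_mir_182 at -0.04 and novel_mir_113 at -0.40, because novel_mir_166 and novel_mir_87 were the only 2 of the 8 above 0. With 1 library per condition this likeness rests on 2 values per entry.

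The entry with the longest run shared with novel_mir_166 was novel_mir_87, on chromosome 17, which was also the nearest in ratio among the 8 entries of 1000 or more reads. The run had 11 bases, marked in capitals, and the run stood at bases 4 to 14 in each.
novel_mir_166: tcgCAGGAGAGATGacgccgt
novel_mir_87: tccCAGGAGAGATGgcacctgc
Aligned from the 5′ end, they differed at 5 of 21 positions, G3C, A15G, G17A, G20T and T21G, with the base of novel_mir_166 first and positions counted from its 5′ end. No further entry held the run. Novel_mir_87 had 8651 reads in CT, against 4690 in NCT, which is 1.52-fold and beside the 1.57-fold of novel_mir_166. Both were read from the 5p arm. Among the known grapevine miRNAs of the study's list, the longest run shared with novel_mir_166 was 8 bases, with vvi-miR3625. Grapevine miRNAs outside that list and miRNAs from other plants were not compared.

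In that list of known grapevine miRNAs, the one with the fewest mismatches was another, vvi-miR390, and it was picked out after its values were seen. MiR390 is known in plants for starting the production of small interfering RNAs from a non-coding transcript. When it is shifted by 2 bases, 14 of 19 compared bases are the same, shown in capitals.
novel_mir_166: tCgCAGGAGaGATgaCGCCgt
vvi-miR390: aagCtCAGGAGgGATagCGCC
The 5 differences, with the base of novel_mir_166 first, were T1G, G3T, A10G, G14A and A15G. The seeds are not the same, as the register differs.

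For novel_mir_154, the entry with the longest shared run was novel_mir_102, with 12 bases, 19 reads in CT and 21 in NCT. Novel_mir_178, the nearest in ratio among the entries of 1000 or more reads, came next with 11 bases. Among the listed known grapevine miRNAs the run was longer still, and miRNAs outside the list were again not compared. Vvi-miR156h, a member of the miR156 family, shared 13 bases, which form the 5′ end of novel_mir_154 and begin at base 5 of vvi-miR156h.
novel_mir_154: AGAAGAGAGAGAGtacagcta
vvi-miR156h: tgacAGAAGAGAGAGAGcat
novel_mir_178: tgacaAAGAGAGAGAGcacac
In this register the overlap of novel_mir_154 and vvi-miR156h was 16 bases with 2 differences, T14C and C16T, with the base of novel_mir_154 first and counted from its 5′ end. The seeds do not coincide, as the sequences are offset by 4 bases. No other entry of the table held the run of 13 bases.

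MiR156 is known to guide cleavage of messenger RNAs of SBP-box transcription factors, which control the change from juvenile to adult growth and flowering. The study's target list covers the miRNAs it classed as differentially expressed, so no targets of novel_mir_154 or novel_mir_166 are listed there. Both were therefore compared with the target fragments given for the other miRNAs, 147 fragments of 131 genes. The longest run of novel_mir_154 with perfect pairing was 13 bases, and all 8 fragments with such a run were listed for vvi-miR156b, c and d and annotated with an SBP domain. An example is that of GSVIVT01010522001, printed here with the bases that pair with bases 1 to 13 of novel_mir_154 in capitals.
GSVIVT01010522001: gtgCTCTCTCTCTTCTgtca
The capitals are the complement of the 13 bases that novel_mir_154 shares with vvi-miR156h. The run therefore restates that likeness and is not a separate result. Over the 11 fragments listed for vvi-miR156b, c and d, the run was 6 to 13 bases with a median of 13. Over the fragments listed for others it was at most 6. The fragment ends before the last bases of novel_mir_154, so the rest of the site was not compared. With G:U pairs allowed, the run reached 16 bases in 8 fragments, all listed for vvi-miR156b, c and d. Over the other fragments it was then at most 10.

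Novel_mir_166 had no perfect match of this length. Its longest run with perfect pairing was 7 bases, in 10 fragments, and at most 6 in those of vvi-miR156b, c and d. With G:U pairs its longest run was 10 bases, in the 11 fragments listed for vvi-miR156b, c and d, against at most 8 in the others. The median longest run over all fragments was 4 bases for either member. These matches describe the letters of fragments selected for other miRNAs, and whether either member acts on any of these genes was not tested.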

How the data were processed

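Small RNA libraries of 1 CT and 1 NCT sample were analysed from the deposited table of predicted miRNAs. The authors trimmed the reads, kept clean reads of small RNA length, aligned them with SOAP2, allowing no mismatch, to PN40024 (12X), removed other non-coding RNAs and known miRNA precursors, and predicted hairpins in each library with Mireap. The authors deposited raw counts per mature sequence, without normalization, together with precursor numbers and arms, which are read as text (other values).

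The lowest count above 0 was 5 in either library, and 1 read is worth 0.0386 RPM (reads per 1000000 clean reads) in CT and 0.0468 RPM in NCT. As the table holds only 0.376% (CT) and 0.435% (NCT) of the clean reads, counts were divided by the study's clean read totals. The members were chosen by their counts, and the members, lists and rules were set with earlier results of these data known. Named entries were the members, entries at the limit of 10000 reads, the 3 nearest in log2 ratio among entries of 1000 or more reads in both libraries, and those with the longest shared run. Outside this rule, novel_mir_3, novel_mir_13, novel_mir_285 and vvi-miR390 were singled out with their values in view. With 1 library per condition no test was made, and no dispersion was estimated.

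Precursor, known miRNA and target sequences were taken from the study's supplementary lists, of which only sequences, places and annotations were used. Folding used RNAfold (ViennaRNA 2.7.2). Alignments were ungapped, over at least 16 bases. TMM factors came from edgeR 4.0.16 in R 4.3.3, and all else from Python 3.11.15 (scipy 1.17.1, numpy 2.4.6, pandas 2.3.3). The helper functions were tested on simulated data. Alternatives were other library totals, low-count filters, denominators, folding settings, alignment lengths and G:U pairs. No genome of the 12X build was used here, so coordinates are those of the study's list. Certain sequences and the results that need them are not reported here.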

Additional observations from a re-analysis of the deposited data

How the results depend on the processing

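No paired analysis was possible because there is only a single CT and a single NCT library. Neither log2(CT/NCT) changed direction under any of the 6 other library totals, but the members had been chosen for these directions. With listed reads, listed reads without the members, the median of ratios and TMM factors, novel_mir_154 was at -0.38, -0.25, -0.18 and -0.17, and novel_mir_166 at 0.86, 0.99, 1.07 and 1.07. Of the 103 entries listed in both libraries, 40, 45, 51 and 52 were then higher in CT (38.8%, 43.7%, 49.5% and 50.5%), against 24 with the clean reads. Among entries of 50 or more reads it was 11 of 48, of 10 RPM or more 5 of 20, and over all entries with 0 set to 0.01 RPM 113 of 299. The members' share of listed reads was 33.7% in CT and 27.6% in NCT among entries of 50 or more reads, and 0.124% and 0.117% of the clean reads.

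The energy of the novel_mir_154 precursor was -81.1 kcal/mol at 26°C, -122 kcal/mol at 4°C, -66.7 kcal/mol with an older set of energy parameters (Turner) and -56.6 kcal/mol without dangling ends. That of novel_mir_166 was -56.2, -77.1 and -48.4 kcal/mol under the first 3 of these. At 4°C, 18 bases of novel_mir_154 were paired. The fewest mismatches of novel_mir_154 were 3 with another entry over at least 14 bases and 6 with a known miRNA over at least 18 bases, against 4 and 2 over at least 16. With G:U pairs the longest runs with the target fragments were 16 bases for novel_mir_154 and 10 for novel_mir_166. The planned search of all transcripts for target sites was not run, as no transcript set was used here. The counts of 10000 reads or more allow narrow counting intervals, but replicate error is unknown.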
